A study of Homo sapiens with 12 samples.

Results

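The genes described here are 36 genes of homologous recombination and the Fanconi anaemia pathway, taken by symbol from a list written for this purpose. All 36 were found among the 25049 genes of the deposited count table, and all 36 passed the filter on low counts that left 21974 genes for testing. By role they comprise 4 genes of break-end sensing and resection, 4 of BRCA1/BRCA2-dependent recombinase loading, 7 recombinase paralogs and strand-exchange factors, 5 of junction dissolution and resolution, 7 of the Fanconi core complex and its anchor, 3 of the Fanconi ID complex and its partner helicase, 5 checkpoint kinases and their activator, and 1 of polymerase theta end joining.

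Polyadenylated RNA was sequenced from 12 samples of MDA-MB-231b, a bone-tropic derivative of the established human triple-negative breast cancer line MDA-MB-231 that had been recovered from the bone marrow of nude mice. All cells had gone through lentiviral CRISPR-Cas9 transduction, either with a non-targeted guide (called WT) or with a guide against GLI2, a transcription factor of the Hedgehog pathway (called GLI2 KO). Each genotype was held for 2 days in DMSO, the solvent control, or in 50 nM paclitaxel, a taxane that stabilises microtubules, with 3 samples in each of the 4 groups. The sources do not say whether each line is a clone or a pool, so a trait of the line and an effect of the guide cannot be told apart.

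Totals ran from 83230948 to 109018776 counts per sample. GLI2 RNA read 10.4, 11.4 and 10.6 CPM (counts per 1000000 counts, scaled by TMM factors) in WT DMSO and 9.28, 8.23 and 10.1 CPM in GLI2 KO DMSO, a log2 difference of -0.23 ± 0.08 (± approximate standard error; edgeR adjusted p = 0.0253). It differed by -0.44 ± 0.09 in paclitaxel (adjusted p = 2.43e-04), and a count over the whole gene does not read the edit itself. VIM, CD44, CAV1 and KRT18, markers of this mesenchymal-like line, were present in every sample (lowest value 232 CPM, KRT18). PGR, a hormone receptor gene that such a line should lack, reached 2.18 to 2.98 CPM in GLI2 KO DMSO and at most 0.0113 CPM in WT, and ERBB2 read 43.8 to 58.4 CPM. Of 9 markers of blood, stromal and endothelial cells, 7 were in the table. Their summed level was 8.01 to 8.58 CPM in WT DMSO, 10.5 to 12.1 in WT paclitaxel, 6.81 to 8.11 in GLI2 KO DMSO and 13.3 to 14.6 in GLI2 KO paclitaxel, most of it COL1A1, and without COL1A1 no sample exceeded 2.94 CPM. CDH5, BGLAP and PDGFRA were at 0 in at least 1 sample. The part of such RNA in the results below was not tested.

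Homologous recombination repairs broken or stalled DNA by copying the sister chromatid, and is therefore used mainly in S and G2 phase. Broken ends are resected to single strands, BRCA1 and BRCA2 load the recombinase onto them, paralogs and motor proteins promote strand exchange, and the joined molecules are then dissolved or cleaved. The Fanconi anaemia pathway attaches ubiquitin to the FANCI-FANCD2 clamp at DNA crosslinks and hands them to nucleases and to recombination. Breast cancers that have lost BRCA1 or BRCA2 are known for defects of this route, and many of its genes are transcribed in the cell cycle under E2F control.

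Because E2F factors are a known link between these genes and the cell cycle, promoters were searched for E2F-type octamers. RefSeq promoters (GRCh38.p14, 250 bases before to 50 after the start of the gene) were matched by symbol for 32 of the 36 members, and those of FANCI, NBN, RAD54B and RMI2 were not analysed here. The octamers TTTCCCGC, TTTGGCGC, TTTCGCGC and TTTGCCGC were searched on both strands, and a promoter that held several was counted once. They occurred in 6 of the 32 members (18.8%), against 4.87% of 13749 promoters of genes in the table and 3.31% of all 35116 promoters. Of the promoters of 26 DNA replication genes, 17 (65.4%) held one, as did 7 of 47 (14.9%) of other genes of the same pathway. The share was 4 of 19 (21.1%) for mismatch and excision repair genes and 1 of 12 (8.33%) for nonhomologous end joining genes. The stretches are shown so that the sites found in these 6 members can be read in their context. They read 5′ to 3′ along the strand of the gene, with the octamer or its reverse complement in capitals.
EXO1, chr1:241848198-241848225, plus strand: aaggtcagccTTTCGCGCgctgtgtagg
FANCA, chr16:89816802-89816829, minus strand: ctacaccgcgGCGGCAAAgccaaacgca
FANCC, chr9:95317864-95317891, minus strand: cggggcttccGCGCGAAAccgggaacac
FANCC, chr9:95317738-95317765, minus strand: tcgtcggaatTTTCCCGCgacgccgcgg
FANCD2, chr3:10026425-10026452, plus strand: gtcgggcctgGCGGGAAAgtcgaaaact
TOPBP1, chr3:133661931-133661958, minus strand: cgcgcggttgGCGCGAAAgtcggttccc
XRCC2, chr7:152676103-152676130, minus strand: ggcgttggtgGCGGGAAAgttgagtctc

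The octamers of FANCD2 and TOPBP1 spanned the annotated start, from position -2 to 6 and from -7 to 1. Those of EXO1 (5 to 12) and XRCC2 (22 to 29) lay just after it, and that of FANCA (-172 to -165) lay upstream, as did both in FANCC (-172 to -165 and -46 to -39). Other motifs searched in the same windows, on both strands, were the CHR element TTTGAA (4 of 32 members, 12.5%, against 10.7% of promoters of genes in the table and 15.2% of all promoters), the CCAAT box CCAAT (14 of 32, 43.8%, against 36.1% and 34.6%) and the NRF1 motif (0 of 32, against 2.07% and 1.24%). The CHR letters were found in ATM, BRIP1, FANCC and POLQ. A match is a description of the letters and not of binding.

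Levels of different genes were compared as CPM per kilobase of exon (GENCODE 29 exon union). In WT DMSO samples FANCL, the ubiquitin ligase subunit of the Fanconi core complex, was the highest member at 40.7 CPM per kilobase (39.7 to 42.6 over 3 samples). RAD51AP1, a strand-exchange stimulator, followed at 31.2 (31.0 to 31.5). RBBP8 and FANCI came next at 23.8 (23.5 to 24.2) and 23.4 (22.7 to 23.8), and their ranges overlapped. BRCA1 stood at 10.8 (10.6 to 11.0) and BRCA2 at 6.22 (6.18 to 6.27) CPM per kilobase. At the low end were RAD51D at 2.37 (2.28 to 2.50), FANCC at 2.06 (2.03 to 2.08), RAD54B at 1.17 (1.12 to 1.20) and RAD50 at 0.444 (0.403 to 0.50), with ranges that did not overlap. The value of RAD50 is uncertain, because 79.7% of its exon bases also belong to AC116366.3, an overlapping gene model on the same strand. That of RAD54B is uncertain too, with 59.1% shared with FSBP on the same strand. The sources do not say how such reads were counted. The order also depends on the exon union, which spans 2412 bases for FANCL, 11304 for RAD51D and 12809 for FANCC. By mean CPM over all samples, without length, RAD51D (63.4 percentile of the genes tested) and FANCC (64.9) ranked above CHEK2 (58.3).

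In WT cells, 33 of the 36 members were lower in paclitaxel than in DMSO and 1, RAD50, was higher, while FANCE and FANCF did not pass the test (edgeR quasi-likelihood test, Benjamini-Hochberg adjusted p below 0.05). Across all genes tested 66.7% were called, 32.1% lower and 34.6% higher, against 91.7% and 2.78% of the members. Mean levels of the members ranked from the 50.2 to the 97.1 percentile of the genes tested. Shares of all genes, here and below, thus take in many genes with lower levels. With a minimum count of 50, 5761 of 16198 genes were lower and 5851 higher, against 33 and 1 of the members. The median log2 fold change of the members was -0.46, against 0.03 for all genes. Values after ± below are approximate standard errors on the log2 scale, and intervals are approximate 95% intervals. No member was called lower by as much as 2-fold. The samples of the 2 groups did not overlap for 34 members that were lower and 1 that was higher in paclitaxel, where 34.5% and 37.1% of all genes did the same. Nothing in the labels says that samples of a group were separate cultures, so the p-values may rest on technical spread alone. In bulk RNA, fewer cells in a phase or state and less RNA per cell cannot be told apart.

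In GLI2 KO cells, 31 members were lower in paclitaxel, RAD50 was higher, and CHEK2, FANCE, FANCF and NBN did not pass. The background was 65.2% of genes called, 32.2% lower and 33.0% higher, and the members' median was -0.52, against 0.02 for all genes. Non-overlapping samples were found for 32 lower members and 1 higher, against 32.8% and 34.4% of all genes. BRIP1 and RAD54L were more than 2-fold lower. The 31 members lower in GLI2 KO cells were all lower in WT cells too, and RAD50 was higher in both, where 26.7% of all genes were lower in both genotypes and 26.7% higher in both. Over the 36 members the log2 changes in the 2 genotypes, which share no sample, had Pearson's r = 0.929 and Spearman's rho = 0.917, a description across genes that share their libraries. These counts depend on the scaling. Upper-quartile factors moved the median of all genes up by 0.13 (WT) and 0.12 (GLI2 KO), and library totals moved it up by 0.16 and 0.18. With them 31 and 31 members were lower in WT cells and 27 and 26 in GLI2 KO cells. Of all 21974 genes, 4731 and 4295 were lower in WT cells and 4791 and 3831 in GLI2 KO cells with these scalings. Those called higher were 9905 and 10352 in WT cells and 9324 and 10398 in GLI2 KO cells. Among the members higher calls came to 2 and 2 in WT cells (RAD50 and FANCE) and 2 and 5 in GLI2 KO cells, where the 5 were RAD50, CHEK2, FANCE, FANCF and NBN.

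**Figure D1:**
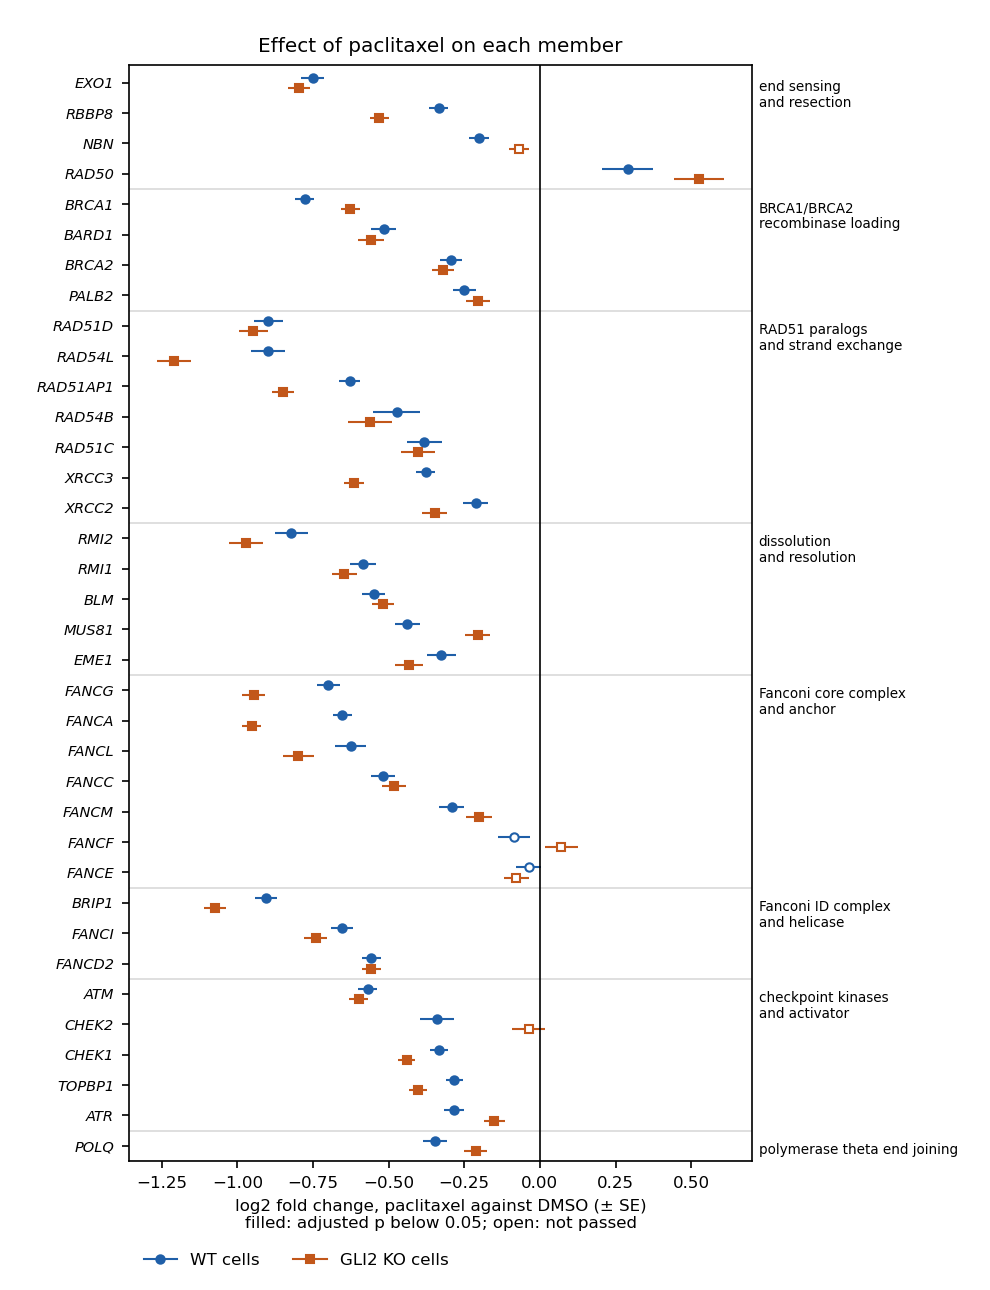
Log2 fold change of paclitaxel against DMSO for each of the 36 members, ordered by role, in WT cells (blue circles) and GLI2 KO cells (orange squares), with approximate standard errors and filled symbols for an adjusted p below 0.05. All points lie left of 0 except RAD50 in both genotypes and FANCF in GLI2 KO cells (0.07, not passed) with TMM factors, and RAD54L in GLI2 KO cells reaches -1.21.

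The genes of break-end sensing and resection were split. EXO1, the exonuclease that extends resection, changed by -0.75 ± 0.04 (log2) in WT and -0.80 ± 0.04 in GLI2 KO cells. RBBP8, which encodes the resection starter CtIP, changed by -0.33 ± 0.03 and -0.53 ± 0.03. NBN, the adaptor of the MRE11-RAD50-NBN complex that recruits ATM, read 104, 107 and 100.3 CPM in WT DMSO and 89.8, 89.7 and 91 CPM in WT paclitaxel, and it fell by 13%, a call that did not pass with upper-quartile factors or library totals. NBN in GLI2 KO cells read 135, 146 and 145 CPM in DMSO and 133, 134 and 139 CPM in paclitaxel, the 2 groups overlapped, and the change of -0.07 ± 0.03 did not pass (adjusted p = 0.0641). RAD50, the ATPase of the same complex, was the only member that rose. It read 3.94, 4.89 and 4.19 CPM in WT DMSO and 5.16, 5.16 and 5.53 CPM in WT paclitaxel, a rise of 0.29 ± 0.08 (adjusted p = 0.00401). RAD50 in GLI2 KO cells went from 4.14, 4.14 and 4.61 CPM to 5.96, 6.01 and 6.57 CPM, a rise of 0.53 ± 0.08 (adjusted p = 5.73e-06). Every paclitaxel sample lay above every DMSO sample of its genotype, at low counts and with the shared exon bases named above. RAD50 is 1 of 5 members that share over 20% of their exon bases with another gene, so leaving those 5 out left no member called higher.

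BRCA1 and its partners fell together, 4 of 4 in both genotypes (adjusted p at most 3.46e-06 in WT and 5.12e-05 in GLI2 KO cells). BRCA1 (chr17:43044295-43170245, minus strand, GRCh38) read 101, 101 and 97.1 CPM in WT DMSO and 59.4, 56.7 and 58.3 CPM in WT paclitaxel, so it fell by 41.6% (log2 -0.78 ± 0.03, adjusted p = 2.84e-16). In GLI2 KO cells it read 85.8, 89.5 and 88.8 CPM in DMSO and 56.8, 57.7 and 56.6 CPM in paclitaxel (log2 -0.63 ± 0.03). The paclitaxel samples of both genotypes met at nearly the same level, while the WT samples had started higher. BARD1, which pairs with BRCA1 in a ubiquitin ligase, changed by -0.52 ± 0.04 and -0.56 ± 0.04. BRCA2, which loads the recombinase, read 75.8, 76.4 and 77 CPM in WT DMSO and 62, 62 and 62.8 CPM in WT paclitaxel (log2 -0.29 ± 0.04). BRCA2 in GLI2 KO cells read 69.2, 67.9 and 64.3 CPM in DMSO and 51.4, 52.6 and 57.2 CPM in paclitaxel (log2 -0.32 ± 0.04), again without overlap. PALB2, the bridge between BRCA1 and BRCA2, had the smallest estimates of the 4, -0.25 ± 0.04 and -0.20 ± 0.04. The fall of PALB2 in GLI2 KO cells did not pass with upper-quartile factors or library totals.

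Among the strand-exchange genes 7 of 7 fell in both genotypes (adjusted p at most 6.55e-05 in WT and 1.84e-06 in GLI2 KO cells). RAD54L, a motor protein that drives strand exchange, read 27.3, 28.3 and 27.1 CPM in WT DMSO and 14.9, 15.6 and 13.9 CPM in WT paclitaxel, so it fell by 46.3%. RAD54L in GLI2 KO cells went from 33.5, 35.4 and 30.0 CPM to 14.7, 14.6 and 13.5 CPM, so it fell by 56.8% (log2 -1.21 ± 0.06), which was the largest estimate among the members. RAD54L shares 25.1% of its exon bases with LRRC41 on the opposite strand, whose own change was -0.24 in WT and -0.05, not passed, in GLI2 KO cells. RAD51D, a recombinase paralog, read 25.8, 28.2 and 26.3 CPM in WT DMSO and 14.4, 13.8 and 15 CPM in WT paclitaxel (log2 -0.90 ± 0.05). RAD51D in GLI2 KO cells read 24.4, 26.3 and 26.1 CPM in DMSO and 13.3, 13 and 13.6 CPM in paclitaxel (log2 -0.95 ± 0.05), and the difference between the 2 effects had an interval of -0.21 to 0.11. RAD51AP1 read 80.6, 79.4 and 79.8 CPM in WT DMSO and 52.3, 51.8 and 51 CPM in WT paclitaxel (log2 -0.63 ± 0.04). Its levels were 88.1, 93.2 and 83.5 CPM in GLI2 KO DMSO and 49.5, 50.1 and 47.5 CPM in GLI2 KO paclitaxel (log2 -0.85 ± 0.04), with no overlap between the 2 media in either genotype.

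The other strand-exchange genes had smaller estimates. RAD51C read 23, 22.6 and 22.3 CPM in WT DMSO and 17.6, 17.2 and 17.4 CPM in WT paclitaxel (log2 -0.38 ± 0.06), and 28.7, 27.8 and 25.1 CPM and 21.1, 22.3 and 18.4 CPM in the GLI2 KO groups (log2 -0.40 ± 0.06). XRCC2, which works in a complex with RAD51D, read 53.4, 58.4 and 55.7 CPM in WT DMSO and 47.8, 48.8 and 47.8 CPM in WT paclitaxel (log2 -0.21 ± 0.04), a call that did not pass with upper-quartile factors or library totals. For XRCC2, and for the other genes of this paragraph, no paclitaxel sample reached the DMSO samples of its genotype. The GLI2 KO samples of XRCC2 read 50.7, 54.2 and 49.3 CPM in DMSO and 38.3, 41.2 and 41.7 CPM in paclitaxel (log2 -0.35 ± 0.04). XRCC3, the partner of RAD51C, went from 69.7, 71.4 and 69.6 CPM to 54.9, 52.5 and 54.8 CPM in WT cells (log2 -0.38 ± 0.03) and from 69.2, 71.4 and 67.5 CPM to 45.4, 45.5 and 45.1 CPM in GLI2 KO cells (log2 -0.61 ± 0.03). XRCC3 shares 76.7% of its exon bases with KLC1 on the opposite strand, so its counts are uncertain, and KLC1 itself changed by -0.11 and -0.03 (not passed). RAD54B, a relative of RAD54L, read 6.30, 5.92 and 6.36 CPM in WT DMSO and 4.46, 4.68 and 4.26 CPM in WT paclitaxel (log2 -0.47 ± 0.08). RAD54B in GLI2 KO cells went from 9.49, 9.72 and 8.05 CPM to 5.90, 6.34 and 6.20 CPM (log2 -0.56 ± 0.07). Of its exon bases 59.1% are shared with FSBP on the same strand, so its counts are uncertain. FSBP itself changed by -0.19 (not passed) in WT and -0.32 in GLI2 KO cells.

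Genes that dissolve or cut joined DNA molecules fell in both genotypes, 5 of 5 (adjusted p at most 1.61e-06 and 0.000114). RMI2, a small subunit of the BLM dissolvasome, read 21, 22.3 and 21.7 CPM in WT DMSO and 12.6, 12.2 and 12 CPM in WT paclitaxel (log2 -0.82 ± 0.05). In GLI2 KO cells RMI2 was lower at both ends, with 17.5, 18.3 and 16.7 CPM in DMSO and 8.85, 9.70 and 8.26 CPM in paclitaxel (log2 -0.97 ± 0.06). RMI1, its partner, changed by -0.59 ± 0.04 and -0.65 ± 0.04, and the helicase gene BLM by -0.55 ± 0.04 and -0.52 ± 0.04. MUS81, the catalytic subunit of a junction-cutting nuclease, read 49.8, 46.4 and 46.9 CPM in WT DMSO and 36.4, 34.5 and 34.8 CPM in WT paclitaxel (log2 -0.44 ± 0.04). Its change was smaller in GLI2 KO cells, from 44.2, 45.1 and 40.9 CPM to 38.6, 38.1 and 36.2 CPM (log2 -0.21 ± 0.04), and did not pass there with upper-quartile factors or library totals. EME1, the other subunit of that nuclease, changed by -0.33 ± 0.05 and -0.43 ± 0.05.

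Of the Fanconi core complex and its anchor, 5 of 7 fell in each genotype, and FANCE and FANCF passed in neither. FANCA, the scaffold of one core subcomplex, read 156, 156 and 162 CPM in WT DMSO and 101, 103 and 97.2 CPM in WT paclitaxel (log2 -0.65 ± 0.03). FANCA in GLI2 KO cells read 154, 152 and 144 CPM in DMSO and 77.8, 78.5 and 76.3 CPM in paclitaxel, so it fell by 48.3% (log2 -0.95 ± 0.03). FANCA shares 23.6% of its exon bases with ZNF276 on the opposite strand, which changed by -0.09 in WT and 0.12 in GLI2 KO cells. FANCG, which binds FANCA, went from 38.7, 40.4 and 38.9 CPM to 23.7, 24.4 and 24.6 CPM in WT cells (log2 -0.70 ± 0.04) and from 43.4, 43.9 and 43 CPM to 23.5, 21.8 and 22.3 CPM in GLI2 KO cells (log2 -0.95 ± 0.04). The DMSO and paclitaxel samples of FANCA and FANCG were fully apart in both genotypes. FANCL changed by -0.63 ± 0.05 and -0.80 ± 0.05, and FANCC, of another subcomplex, by -0.52 ± 0.04 and -0.48 ± 0.04. FANCM, the DNA translocase that anchors the core complex, read 48.5, 46.7 and 51 CPM in WT DMSO and 40.4, 41.6 and 37.5 CPM in WT paclitaxel (log2 -0.29 ± 0.04). The GLI2 KO samples of FANCM read 35.3, 36.3 and 35 CPM in DMSO and 29.4, 31.2 and 32 CPM in paclitaxel (log2 -0.20 ± 0.04), a call that did not pass with upper-quartile factors or library totals. The 2 media did not overlap for FANCM in either genotype. FANCE, which contacts FANCD2, had a change of -0.04 ± 0.04 in WT and -0.08 ± 0.04 in GLI2 KO cells, with intervals of -0.13 to 0.06 and -0.17 to 0.02. FANCF, an adaptor, had -0.09 ± 0.05 and 0.07 ± 0.05, with intervals of -0.21 to 0.04 and -0.05 to 0.20.

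FANCD2 and FANCI, the clamp that the core complex modifies, and the helicase gene BRIP1 fell, 3 of 3 in both genotypes (adjusted p at most 1.73e-13 and 1.01e-13). FANCD2 read 100.2, 99.8 and 103 CPM in WT DMSO and 68, 69.5 and 68.6 CPM in WT paclitaxel (log2 -0.56 ± 0.03). FANCD2 in GLI2 KO cells read 104, 103 and 98.2 CPM in DMSO and 67.5, 68.4 and 71.2 CPM in paclitaxel (log2 -0.56 ± 0.03), and the difference between the 2 effects had an interval of -0.10 to 0.10. FANCI, its partner in the clamp, went from 185, 176 and 185 CPM to 119, 115 and 112 CPM in WT cells (log2 -0.65 ± 0.04) and from 189, 193 and 174 CPM to 112, 114 and 106 CPM in GLI2 KO cells (log2 -0.74 ± 0.04). For both clamp genes every paclitaxel sample was below every DMSO sample of its genotype. BRIP1 (FANCJ; chr17:61681266-61863521, minus strand, GRCh38), a helicase that binds BRCA1, had the largest estimated fall of any member in WT cells, within the errors of RAD51D and RAD54L. It read 81.6, 85.2 and 84.9 CPM in WT DMSO and 45.3, 46.9 and 42.2 CPM in WT paclitaxel, so it fell by 46.6% (log2 -0.90 ± 0.04, adjusted p = 2.57e-16). BRIP1 in GLI2 KO cells went from 84.4, 87.9 and 85.3 CPM to 40.2, 41.3 and 41 CPM, so it fell by 52.5% (log2 -1.07 ± 0.04).

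The checkpoint genes fell in WT cells, 5 of 5 (adjusted p at most 9.33e-06), and 4 of 5 fell in GLI2 KO cells. ATM, the kinase that answers broken ends, read 264, 268 and 275 CPM in WT DMSO and 187, 183 and 175 CPM in WT paclitaxel (log2 -0.57 ± 0.03). In GLI2 KO cells ATM stood higher throughout, with 339, 346 and 355 CPM in DMSO and 229.5, 232 and 225 CPM in paclitaxel, and fell by 34% (log2 -0.60 ± 0.03). ATR, the kinase that answers single-stranded DNA, went from 104, 105 and 107 CPM to 86.7, 88.3 and 84.4 CPM in WT cells (log2 -0.28 ± 0.03). ATR in GLI2 KO cells went from 89.5, 91.1 and 95 CPM to 79.4, 81.9 and 86.9 CPM (log2 -0.15 ± 0.03), which did not pass with upper-quartile factors and was 0.03 and not passed with library totals. ATM and ATR were lower in every paclitaxel sample than in the DMSO samples of the same genotype. TOPBP1, which activates ATR, changed by -0.28 ± 0.03 and -0.40 ± 0.03. CHEK1, the effector kinase below ATR, read 98.7, 101 and 98.3 CPM in WT DMSO and 77.7, 81 and 77.9 CPM in WT paclitaxel (log2 -0.33 ± 0.03). Its GLI2 KO samples read 139, 140.5 and 139.7 CPM in DMSO and 100.1, 105 and 104 CPM in paclitaxel (log2 -0.44 ± 0.03). CHEK2, the effector kinase below ATM, read 13.2, 12.2 and 13.2 CPM in WT DMSO and 9.92, 10.5 and 10.2 CPM in WT paclitaxel (log2 -0.34 ± 0.06). The groups overlapped in GLI2 KO cells, with 15.3, 13.8 and 14.2 CPM in DMSO and 13.7, 14.7 and 13.8 CPM in paclitaxel, and the change of -0.04 ± 0.05 did not pass. POLQ, the polymerase of an error-prone end-joining route, went from 56.4, 55.8 and 58.7 CPM to 46.7, 45.1 and 42.7 CPM in WT cells (log2 -0.35 ± 0.04). POLQ in GLI2 KO cells went from 47.8, 47.5 and 44.2 CPM to 39.5, 40.2 and 40.6 CPM (log2 -0.21 ± 0.04), a call that library totals ended.

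**Figure D2:**
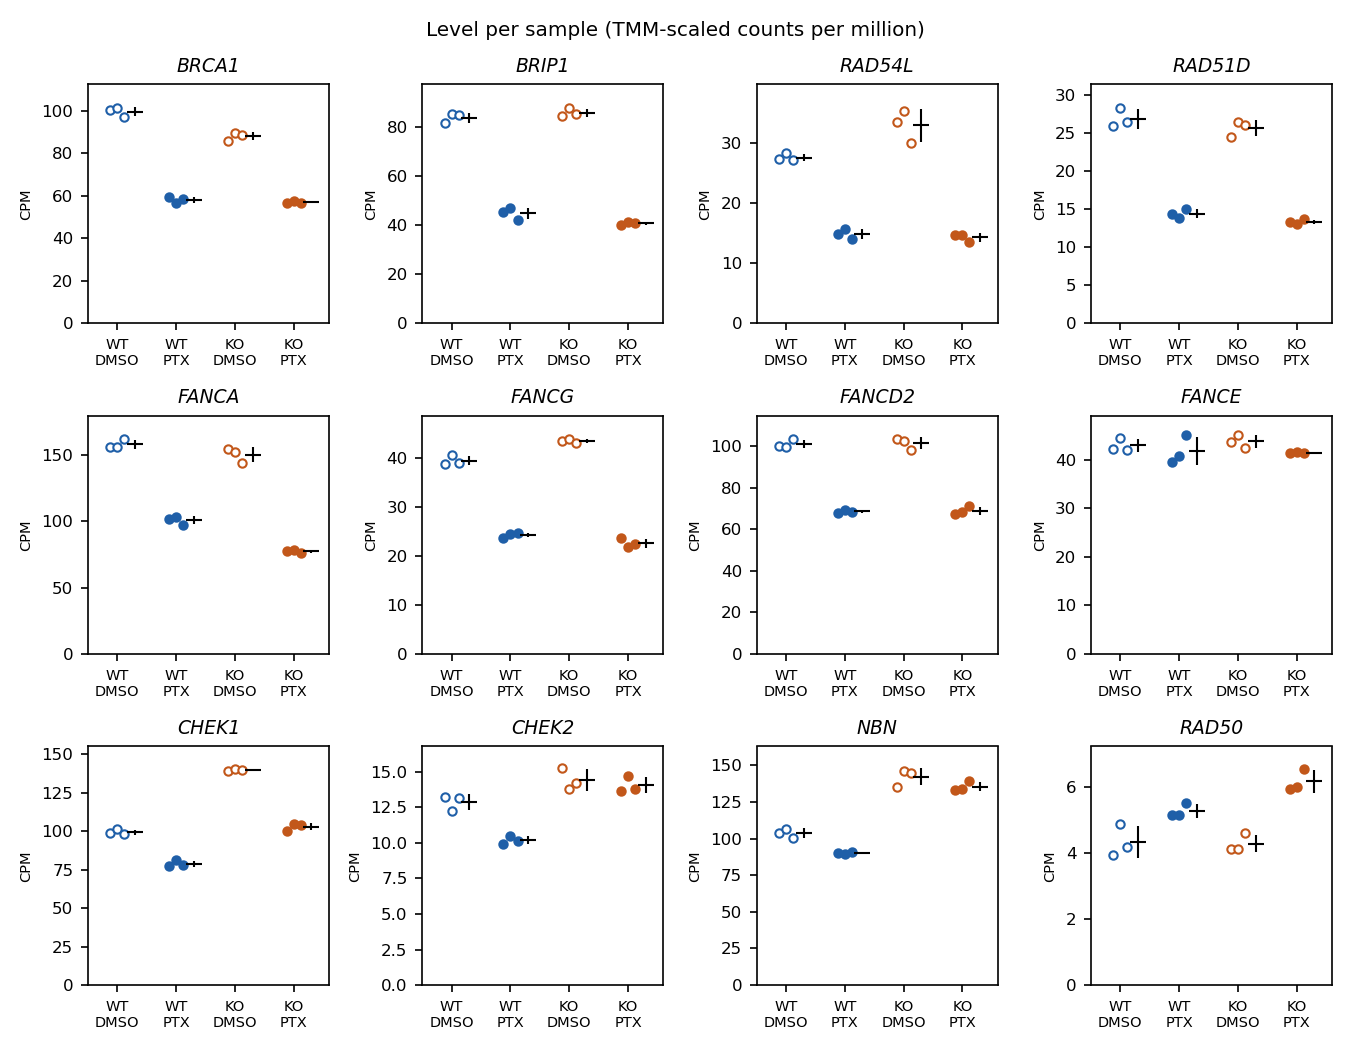
TMM-scaled CPM of 12 members in each of the 12 samples, with open circles for DMSO, filled circles for paclitaxel, blue for WT and orange for GLI2 KO, and the mean ± SD of 3 samples as a black cross beside each group. BRCA1, BRIP1, RAD54L, RAD51D, FANCA, FANCG, FANCD2 and CHEK1 are lower in every paclitaxel sample of a genotype than in every DMSO sample, FANCE overlaps in WT, CHEK2 and NBN overlap in GLI2 KO, and RAD50 is higher.

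Summed over the 36 members, the level was 2481 to 2519 CPM in WT DMSO and 1769 to 1806 CPM in WT paclitaxel, and the mean fell by 28.4%. The GLI2 KO sums were 2569 to 2642 CPM in DMSO and 1779 to 1808 CPM in paclitaxel, and the mean fell by 30.9%. The 30 genes of a DNA replication list moved with them. Their sum fell by 35.6% in WT and by 43.1% in GLI2 KO cells, 30 of 30 were called lower in both genotypes, and their median log2 fold changes were -0.60 and -0.83. Whether the members' fall follows from a smaller share of cells in S phase was not tested. The 6 members with an E2F-type octamer had a median of -0.54 in WT and -0.52 in GLI2 KO cells, and the 26 without had -0.38 and -0.48, with changes in WT cells from -0.75 to -0.21 and from -0.90 to 0.29, so the ranges overlapped.

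Other genes of the same pathway, from a list of 52 of which 51 were tested, were called in both directions. In WT cells 36 were lower, 5 higher and 10 not passed (median -0.26), and in GLI2 KO cells 35 were lower, 6 higher and 10 not passed (median -0.28). CLSPN, the adaptor that brings CHEK1 to ATR, changed by -0.66 and -0.93, and DNA2, a resection nuclease, by -0.69 and -0.85. FAAP100, a core complex subunit that works with FANCL, changed by -0.89 and -0.68. MRE11, the nuclease of the complex with RAD50 and NBN, changed by -0.61 and -0.61, and is named after its values were seen, for its complex. HELQ, a helicase, rose by 0.50 and 0.73. Of 15 nonhomologous end joining genes tested, 9 were lower and 2 higher in WT cells (median -0.15), and 9 were lower and 4 higher in GLI2 KO cells. Of 21 mismatch and excision repair genes, 18 were lower and 3 did not pass in WT cells (median -0.34), and 17 were lower and 1 higher in GLI2 KO cells.

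GLI2 KO and WT cells in DMSO differed in 22 members, 11 higher and 11 lower in GLI2 KO cells, or 30.6% each, against 22.0% and 19.6% of all genes (41.6% in either direction). With a minimum count of 50, 4463 of 16198 genes were higher and 4245 lower, against 11 and 12 of the members. The median was -0.01, so the set did not move one way. The samples did not overlap for 11 higher and 11 lower members, against 25.0% and 23.6% of all genes. The 5 largest rises were those of RAD54B (0.55 ± 0.07), CHEK1 (0.49 ± 0.03), NBN (0.46 ± 0.03), ATM (0.36 ± 0.03) and RAD51C (0.26 ± 0.06). FSBP, which shares exon bases with RAD54B on the same strand, was also higher in GLI2 KO cells, by 0.44 in DMSO and 0.31 in paclitaxel. The part of shared reads in the RAD54B difference was not tested. The 5 largest falls were those of FANCM (-0.46 ± 0.04), RMI2 (-0.31 ± 0.05), POLQ (-0.29 ± 0.04), ATR (-0.20 ± 0.03) and BRCA2 (-0.19 ± 0.04). RAD54L (0.26), EME1 (0.15), RAD51AP1 (0.14), FANCG (0.14), CHEK2 (0.16) and BLM (0.11) were also higher. BRCA1 (-0.18), FANCF (-0.17), MUS81 (-0.14), TOPBP1 (-0.12), XRCC2 (-0.12) and BARD1 (-0.10) were also lower, and all these log2 changes passed with an adjusted p of at most 0.0464.

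In paclitaxel 21 members differed by genotype, 8 higher (22.2%) and 13 lower (36.1%), against 23.4% and 22.2% of all genes (45.6% in either direction), with a median of -0.06. With upper-quartile factors the split was 7 higher and 18 lower, where 4427 and 5706 of 21974 genes were. A minimum count of 50 gave 8 higher and 15 lower, where 4560 and 4734 of 16198 genes were. Non-overlapping samples were found for 9 higher and 16 lower members, against 27.9% and 27.3% of all genes. NBN (0.59 ± 0.03), CHEK2 (0.47 ± 0.06), RAD54B (0.46 ± 0.08), CHEK1 (0.38 ± 0.03) and ATM (0.33 ± 0.03) had the largest rises. RMI2 (-0.46 ± 0.06), FANCA (-0.38 ± 0.03), FANCM (-0.37 ± 0.04), XRCC3 (-0.25 ± 0.03) and XRCC2 (-0.25 ± 0.04) had the largest falls. RAD51C (0.24), RAD50 (0.23) and BLM (0.14) were also higher. TOPBP1 (-0.24), BRCA2 (-0.21), RBBP8 (-0.19), FANCL (-0.19), POLQ (-0.16), BARD1 (-0.15), BRIP1 (-0.13) and FANCG (-0.10) were also lower. In both media 7 members were higher in GLI2 KO cells (ATM, BLM, CHEK1, CHEK2, NBN, RAD51C and RAD54B) and 7 were lower (BARD1, BRCA2, FANCM, POLQ, RMI2, TOPBP1 and XRCC2), where 15.3% of all genes were higher in both media and 13.2% lower in both. EXO1, FANCC, FANCD2, FANCE, FANCI, PALB2, RAD51D and RMI1 passed in neither, and FANCG was the single member called in opposite directions.

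**Figure D3:**
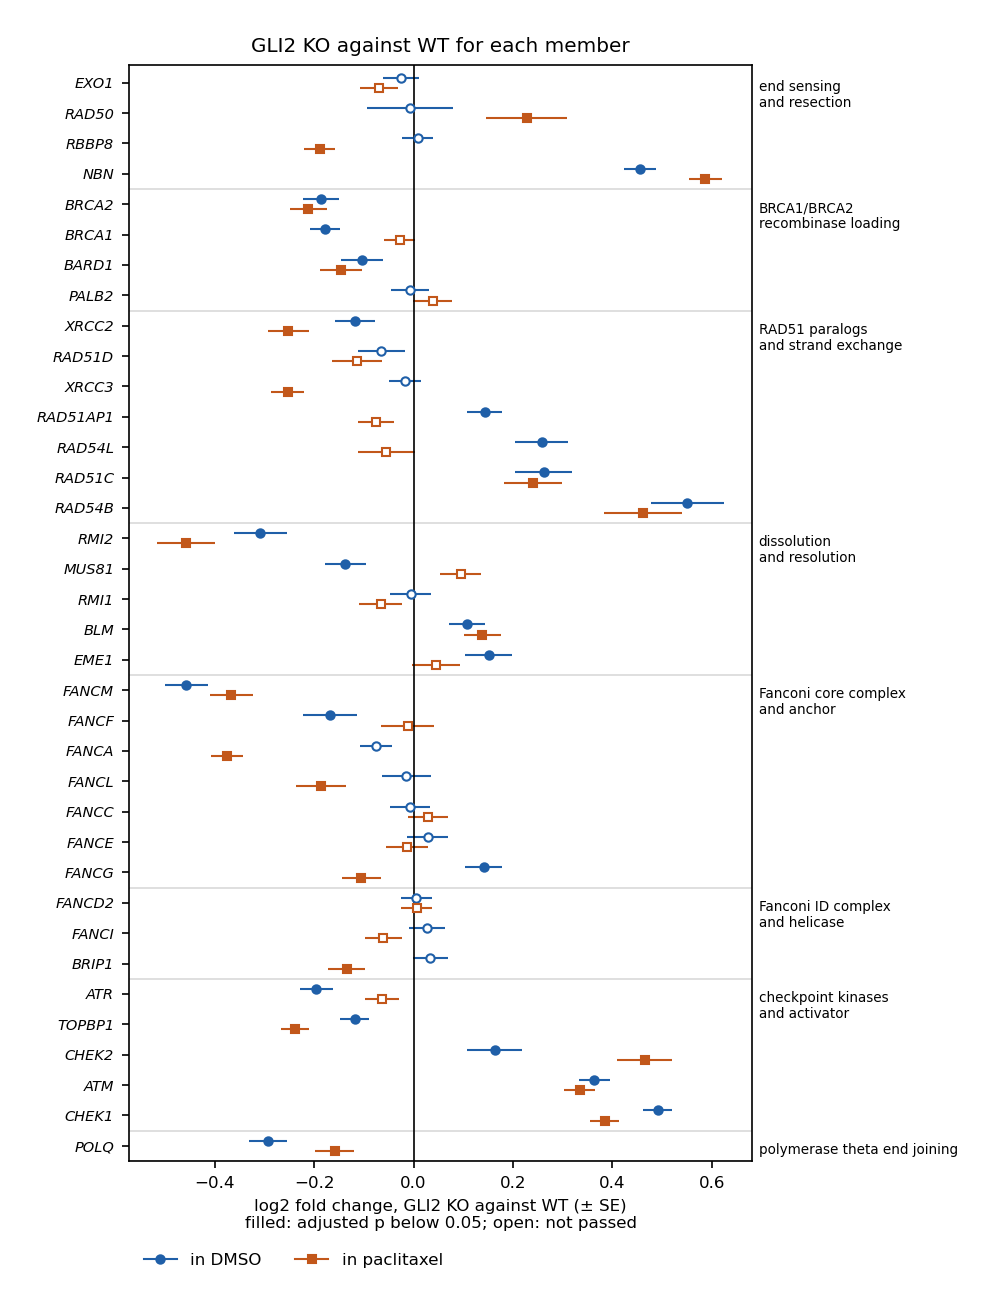
Log2 fold change of GLI2 KO against WT for each of the 36 members, ordered by role, in DMSO (blue circles) and in paclitaxel (orange squares), with approximate standard errors and filled symbols for an adjusted p below 0.05. Members lie on both sides of 0, from FANCM at -0.46 to RAD54B at 0.55 in DMSO. ATM, CHEK1, NBN and RAD54B stand on the right in both media, and CHEK2 (0.47) stands with them in paclitaxel.

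Several of these genotype calls were lost when 1 of the samples named here was left out. In DMSO, BARD1 was lost without any of 7 samples (GLI2 KO DMSO replicates 1 and 2, GLI2 KO paclitaxel replicate 2, WT DMSO replicates 1 and 2, WT paclitaxel replicates 1 and 3; adjusted p 0.0565 to 0.199). XRCC2 was lost without GLI2 KO DMSO replicate 1 or 3 or WT DMSO replicate 2 or 3 (0.0522 to 0.136), and FANCF without GLI2 KO DMSO replicate 1 or 2 or WT DMSO replicate 3 (0.0565 to 0.0716). BLM was lost without GLI2 KO DMSO replicate 1 or WT DMSO replicate 1 (0.0670 and 0.119), and CHEK2 without GLI2 KO DMSO replicate 1 or WT DMSO replicate 2 (0.0970 to 0.122). The scaling ended the BLM call too, with upper-quartile factors and with library totals, and library totals ended the CHEK2 call. EME1 was lost without GLI2 KO DMSO replicate 2 or WT DMSO replicate 2 (0.0527 to 0.0834), and MUS81 without GLI2 KO DMSO replicate 3 or WT DMSO replicate 1 (0.0585 to 0.0740). In paclitaxel, FANCG was lost without replicate 2 or 3 of either genotype (0.0746 to 0.145). RAD50 was lost without GLI2 KO paclitaxel replicate 3 or WT paclitaxel replicate 1 or 2 (0.0759 to 0.114) and with upper-quartile factors, and BARD1 without GLI2 KO paclitaxel replicate 1 or WT paclitaxel replicate 2 (0.0538 to 0.0595).

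Several of the members with the largest genotype differences lay in stretches of chromosome whose other genes differed the same way. For each member up to 50 tested genes nearest to it were taken, with no other member among them. As many came from each side, except for FANCA, which had 38 neighbours in all. The comparison was chosen after the values were seen and used the 20627 tested genes (93.9%) with a GENCODE 29 position. CHEK1 (chr11:125625136-125676255, plus strand) differed by 0.49 in DMSO, and its 50 neighbours had a median of 0.43, with 34 called higher and 1 lower. ATM (chr11:108222484-108369102, plus strand), 17.4 Mb away and sharing 0 neighbours with CHEK1, differed by 0.36, and its neighbours had a median of 0.48, with 42 higher and 0 lower. NBN differed by 0.46 against a neighbour median of 0.54 and RAD54B by 0.55 against 0.60. Both lie on chromosome 8, 4.46 Mb apart, and share 23 of their neighbours. FANCM (chr14:45135940-45200890, plus strand) differed by -0.46, and its neighbours had a median of -0.47, with 1 higher and 29 lower. In paclitaxel the neighbour medians were 0.37 for CHEK1, 0.54 for ATM, 0.47 for NBN, 0.44 for RAD54B and -0.51 for FANCM. Over windows around all 19441 genes with a full set of neighbours, 3.81% had a median of at least 0.35 and 2.13% of at most -0.35 in DMSO, and 3.01% and 2.40% did in paclitaxel. Of the 36 members, only ATM, CHEK1, NBN and RAD54B passed the upper cut and only FANCM the lower, in both media. The cut of 0.35 belongs to this comparison chosen afterwards. It lies just under the neighbour median of CHEK1 in paclitaxel (0.37), so which members passed is a description and not a test. Other members differed between genotypes where the median of their neighbours was near 0. RMI2 differed by -0.31 in DMSO and -0.46 in paclitaxel with neighbour medians of -0.03 and 0.04, POLQ by -0.29 and -0.16 with -0.05 and -0.03, and CHEK2 by 0.16 and 0.47 with -0.08 and -0.02. XRCC3 was in neither case, since its neighbours had medians of -0.22 (28 of 50 lower) in DMSO and -0.29 (34 lower) in paclitaxel while its own difference was -0.02, not passed, and -0.25. The part of the neighbourhoods in the members' differences, and the DNA copy number of the lines, were not tested.

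**Figure D4:**
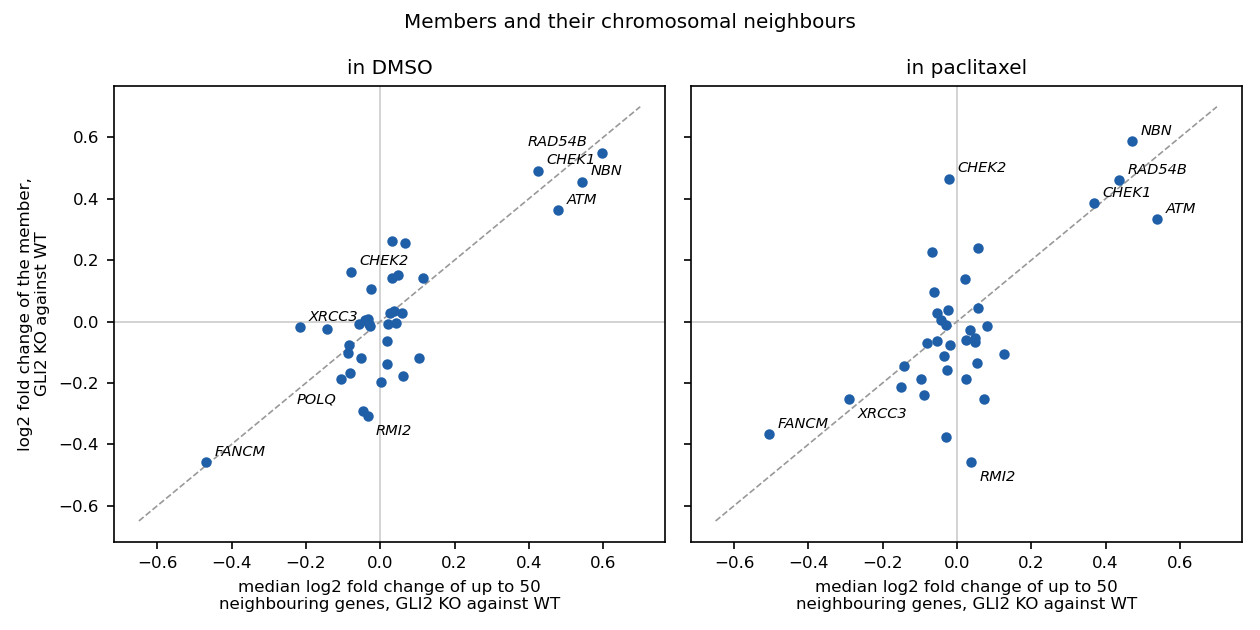
Log2 fold change of each member in GLI2 KO against WT (vertical axis) against the median log2 fold change of up to 50 neighbouring tested genes (horizontal axis), in DMSO (left) and in paclitaxel (right), with the line of equality dashed. NBN, RAD54B, ATM, CHEK1 and FANCM lie far from 0 on the same side as their neighbours. Of these ATM in paclitaxel is furthest from the line (0.33 against 0.54), followed by FANCM in paclitaxel (-0.37 against -0.51). RMI2 and CHEK2 lie away from 0 at a neighbour median between -0.08 and 0.04.

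The effect of paclitaxel differed between genotypes for 10 of the 36 members, where 13.5% of all genes were called (edgeR interaction contrast, adjusted p at most 0.0275). It was more negative in GLI2 KO cells for 7 (19.4%, against 6.93% of all genes) and less negative for 3 (8.33%, against 6.56%, so close to the background in this fit). With a minimum count of 50 the difference was called below 0 for 9 members and 1740 of 16198 genes. In that fit it was called above 0 for 3 members and 1418 genes. RAD54L had the largest difference, -0.31 ± 0.08 (adjusted p = 0.00957), followed by FANCA with -0.30 ± 0.05 (1.01e-04), FANCG with -0.25 ± 0.05 (0.00315), XRCC3 with -0.24 ± 0.05 (0.00103) and RAD51AP1 with -0.22 ± 0.05 (0.00473). RBBP8 differed by -0.20 ± 0.04 and BRIP1 by -0.17 ± 0.05. On the other side were CHEK2 with 0.30 ± 0.08 (adjusted p = 0.0109), MUS81 with 0.23 ± 0.06 (0.00906) and BRCA1 with 0.15 ± 0.04 (0.0231). For 26 members the difference did not pass. Their estimates ran from -0.17 (FANCL) to 0.24 (RAD50, interval -0.04 to 0.51), and a miss of the threshold does not show equal effects. The DNA replication list differed the same way as the 7, with 21 of 30 genes called more negative in GLI2 KO cells, and its part in the members' differences was not tested.

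The 2 genotypes stood in a different relation in each medium for some of these members. For RAD54L the DMSO difference was 0.26 ± 0.05 and the paclitaxel difference -0.05 ± 0.06 (adjusted p = 0.474), and the paclitaxel samples of the 2 genotypes overlapped. For FANCA the same values were -0.08 ± 0.03 (adjusted p = 0.0603) and -0.38 ± 0.03, with no overlap in paclitaxel. BRCA1 did the reverse, with -0.18 ± 0.03 in DMSO and -0.03 ± 0.03 (adjusted p = 0.5) in paclitaxel. RAD54L, FANCA and XRCC3 are the 3 members of this set with shared exon bases. The difference of the paclitaxel effect was 0.19 for their overlapping gene LRRC41, 0.21 for ZNF276 and 0.08, not passed, for KLC1. Between genotypes in paclitaxel, LRRC41 differed by 0.28, ZNF276 by 0.15 and KLC1 by -0.29, the last on the same side as XRCC3 (-0.25). The part of shared reads in these calls was not tested. Of the 31 members that share at most 20% of exon bases, 4 were more negative and 3 less, against 6.93% and 6.56% of all genes.

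The BRCA1 difference was lost without GLI2 KO DMSO replicate 1, GLI2 KO paclitaxel replicate 2, WT DMSO replicate 1 or 2 or WT paclitaxel replicate 2 (adjusted p 0.0559 to 0.0760). That of BRIP1 was lost without GLI2 KO DMSO replicate 2, GLI2 KO paclitaxel replicate 1, WT DMSO replicate 1 or WT paclitaxel replicate 1 or 2 (0.0557 to 0.105), and also with library totals. Without GLI2 KO DMSO replicate 3, 5 members were less negative, the 3 above with ATR and NBN, and 10 more negative, the 7 above with TOPBP1, XRCC2 and FANCI. Of 21974 genes the difference was called above 0 for 1648 and below 0 for 1827 in that fit. DESeq2 called the same 5 less negative, and 8 more negative, the 7 above with TOPBP1. It called 1707 of 21974 genes above 0 and 1476 below.

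**Figure D5:**
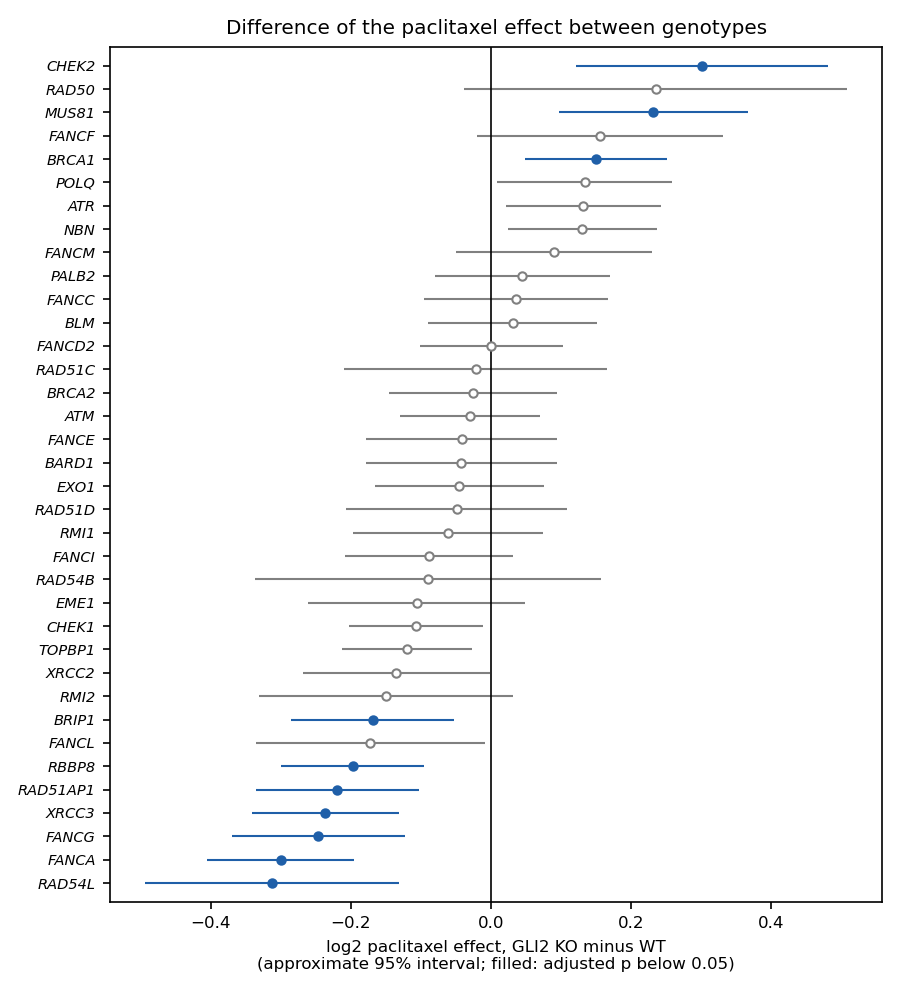
Difference of the log2 paclitaxel effect, GLI2 KO minus WT, for each of the 36 members in order of size, with approximate 95% intervals and filled blue circles for an adjusted p below 0.05. The 10 filled members run from RAD54L at -0.31 to CHEK2 at 0.30, and FANCD2 lies at 0.00.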

How the data were processed

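The deposited table holds raw read counts per gene for 12 samples, with 3 samples in each of 4 groups. The authors worked on the build hg38 with STAR, with DESeq2 1.36.0 and with Trim Galore 0.6.7, per the submitters' processing notes. The sources do not name the counting tool, its annotation or its strand setting. A normalized table from the authors was not used.

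Counts were tested with edgeR 4.0.16 in R 4.3.3 (limma 3.58.1): filterByExpr with a minimum count of 10, TMM factors, and the quasi-likelihood test in 1 model over all 4 groups, with p-values adjusted by Benjamini-Hochberg over the 21974 genes kept. Alternatives were DESeq2 1.42.0, other scalings and filters, the compared groups alone, and each sample left out in turn. The procedure was tested on simulated data. Replicates were numbered in accession order, which pairs nothing. A block of samples with adjacent library numbers was added after seeing the data.

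The members and gene lists were chosen with earlier results of these data known. Every member is named. By rule, values in every sample are given for members that passed and ranked among the 5 largest rises or falls of a comparison, and for BRCA1, BRCA2, FANCD2, FANCI, ATM, ATR and CHEK1. CPM per kilobase used GENCODE 29 exon lengths. Totals were 83230948 to 109018776 counts per sample, and errors come from the spread between samples. Promoters came from RefSeq (GRCh38.p14).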

Additional observations from a re-analysis of the deposited data

Results flagged for a closer look

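The effect of paclitaxel differed between the genotypes, by the edgeR interaction contrast, for 10 members, where 13.5% of all genes were called. As a log2 difference, GLI2 KO minus WT, it was more negative for RAD54L (-0.31), FANCA (-0.30), FANCG (-0.25), XRCC3 (-0.24), RAD51AP1 (-0.22), RBBP8 (-0.20) and BRIP1 (-0.17), which are 19.4% of the members, against 6.93% of all genes. It was less negative for BRCA1 (0.15), MUS81 (0.23) and CHEK2 (0.30), a share of 8.33% that is close to the 6.56% of all genes in this fit. With a minimum count of 50 the difference was called below 0 for 9 members and 1740 of 16198 genes, and above 0 for 3 members and 1418 genes. The calls of BRCA1 and BRIP1 were each lost without any of 5 samples, with adjusted p up to 0.0760 and 0.105.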

How the results depend on the processing

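Of 119 calls on members over the 5 comparisons, 100 were kept under every alternative. Members higher in paclitaxel in WT cells came to 2 with upper-quartile factors, 2 with library totals and 0 without the members that share exon bases, an alternative chosen after seeing the data. In GLI2 KO cells these counts were 2, 5 and 0, and 2 with a minimum count of 50. For the difference between genotypes, 5 members were higher with DESeq2, where 1707 of 21974 genes were. The count of higher members was 2 to 5 when 1 sample was left out. Without the members that share exon bases, 4 of 31 were lower. Over all genes, WT cells had 10352 genes higher and 4295 lower in paclitaxel with library totals, against 7613 and 7047. GLI2 KO cells had 10398 higher and 3831 lower, against 7250 and 7077. Estimates of paclitaxel changes that had not passed changed sign in places. FANCE in WT cells was 0.0962 with upper-quartile factors, 0.12 with library totals and 0.0313 with a minimum count of 50, and ran from -0.0899 to 0.00203 when 1 sample was left out (above 0 without WT paclitaxel replicate 1), and FANCF was 0.0472 and 0.0704 with the 2 scalings. In GLI2 KO cells the 2 scalings gave FANCE 0.0446 and 0.0991, NBN 0.0536 and 0.108, and CHEK2 0.0856 and 0.14. CHEK2 was 0.0229 with a minimum count of 50 and ran from -0.0707 to 0.00476 when 1 sample was left out (above 0 without GLI2 KO DMSO replicate 1). ATR, called lower, was 0.0262 with library totals. The cause was not tested. The labels give no replicate numbers and name no pairs, but adjacent library numbers each hold 1 DMSO and 1 paclitaxel sample of a genotype. Deviations from the group means within the 6 such pairs correlated at -0.0278 to 0.0676, and 4 of 6 DMSO samples correlated best with their own neighbour, so the pairing is not shown. With these pairs as a block, chosen after seeing the data, 33 members were lower and 1 higher in each genotype, and for the difference 9 were lower and 6 higher. Of 21974 genes, 7274 were lower and 7667 higher in WT cells, and 7281 and 7309 in GLI2 KO cells. For the difference 1983 genes were lower and 1849 higher. RAD50 and RAD54B have the fewest counts of the members and the widest errors.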
